A study of Mus musculus with 12 samples.

Results

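The chemokine and chemokine receptor genes of wounded diabetic skin were followed on day 3 after wounding. They were taken by name, as every gene whose symbol is Cxcl, Ccl, Cxcr or Ccr followed by a number, with an optional final letter, together with Cx3cl1, Cx3cr1 and Xcl1, if its estimated counts summed to at least 15 over the 12 libraries. Of 29956 named genes, 54 met this rule, 37 of them ligands and 17 receptors. The lowest of them was Cxcl17, with a summed count of 67.2, and the one gene with a matching symbol that fell short was Ccl26, with 3.92. The skin came from full-thickness punch wounds in the back of mice of 1 genotype, B6.BKS(D)-Leprdb/db, in all 3 groups. Such mice lack a working leptin receptor and become obese and diabetic, and their wounds close slowly. Wounds received Staphylococcus aureus, a Gram-positive skin pathogen, Alcaligenes faecalis, a Gram-negative bacterium, or only the vehicle, PBS with glycerol; each group had 4 mice. The sex and age of the mice are not given in the sources used here.

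Chemokines are small secreted proteins that bind to the extracellular matrix and draw leukocytes along a gradient through G protein-coupled receptors. The CXC ligands that bind Cxcr2 draw neutrophils, many CC ligands draw monocytes through Ccr1 or Ccr2, and others draw T cells, dendritic cells, B cells or eosinophils. In a skin wound neutrophils enter first and monocytes follow, and keratinocytes, fibroblasts, endothelial cells and the leukocytes themselves all make chemokines. The genes are grouped here by the main cell type that each ligand attracts, with the receptor beside its ligands.

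Libraries held 38.4 to 71.3 M (mega) estimated counts. Levels are given as CPM, counts per M (mega) counts of a library after TMM scaling (trimmed mean of M-values), as mean ± SD of 4 libraries. A gene was called when its adjusted p was under 0.05 by the quasi-likelihood F test of edgeR (Benjamini-Hochberg, over 18218 genes), and 53 of the 54 genes entered the test, all except Cxcl17. Log2FC is a log2 fold change and SE its standard error. The label skin was matched by keratinocyte markers (Krt5, Krt14, Krt1, Krt10 and Trp63), which summed to 781 to 2351 CPM in S. aureus wounds, 547 to 1072 CPM in A. faecalis wounds and 1130 to 1809 CPM in vehicle wounds. The summed neutrophil markers were 9132 to 14520 CPM in S. aureus wounds, 1669 to 4094 CPM in A. faecalis wounds and 665 to 8656 CPM in vehicle wounds, where replicate 3 was the lowest library. That library also had the most adipocyte marker RNA (4155 CPM, the other vehicle libraries 1374 to 1713 CPM). The samples are pieces of whole skin, so more cells of a type and more RNA per cell cannot be told apart.

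The first question was which of these genes differed between bacterium and vehicle, and between the bacteria. With S. aureus against vehicle, Ccl20, Ccl22 and Cxcl9 rose and Ccl27a fell, 4 of the 53 genes tested (7.55%), where 6.84% of all genes were called, 3.87% higher and 2.97% lower. With upper-quartile scaling 2 were higher and 2 lower, in place of 3 and 1, and 7.12% of all genes were called. At an unadjusted p under 0.05 there were 24 genes, with 27% of all genes. The count was 2 without vehicle replicate 1 or S. aureus replicate 3, 8 without vehicle replicate 4 and 10 without vehicle replicate 2. With A. faecalis against vehicle none of the 53 was called by edgeR, where 0.011% of all genes were called, 0.00549% higher and 0.00549% lower. In that comparison 9 genes had an unadjusted p under 0.05, with 7.68% of all genes. By limma-voom there was again no call, and DESeq2 called 1, Ccl22, with 0.659% of all genes called. With S. aureus against A. faecalis 9 of the 53 were called (17%), where 12.7% of all genes were, 7.62% higher and 5.06% lower. An unadjusted p under 0.05 was reached by 20, with 28.2% of all genes. In this comparison Ccl20, Ccl22, Ccr7, Ccr8, Cxcr1 and Cxcr2 were higher with S. aureus, and 3 were lower, among them Ccl27a and Ccl27b. The count called between the bacteria was 15 without vehicle replicate 3 (18.8% of all genes) and 4 without A. faecalis replicate 3 (7.27%). It was 5 without A. faecalis replicate 4 (7.57%) or replicates 2 or 3 of the S. aureus group (8.58% and 7.13%). The comparisons share libraries, and their lists are therefore not independent of each other.

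The ranges of the libraries did not overlap in 10 of the 53 genes with S. aureus against vehicle (18.9%, against 15.1% of all genes), of which 7 were higher (7.56% of all genes) and 3 lower (7.57% of all genes). With A. faecalis against vehicle they did not overlap in 4 genes (7.55%, against 4.05% of all genes), of which 1 was higher (1.49% of all genes) and 3 lower (2.56% of all genes). With S. aureus against A. faecalis there were 16 such genes (30.2%, against 23.3% of all genes), 12 of them higher (11.8% of all genes) and 4 lower (11.5% of all genes). The median log2FC of the 53 genes was 0.025 with S. aureus against vehicle, -0.19 with A. faecalis against vehicle and 0.14 with S. aureus against A. faecalis. The medians of all genes tested were -0.037, -0.028 and -0.022 in the same comparisons.

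**Figure D1:**
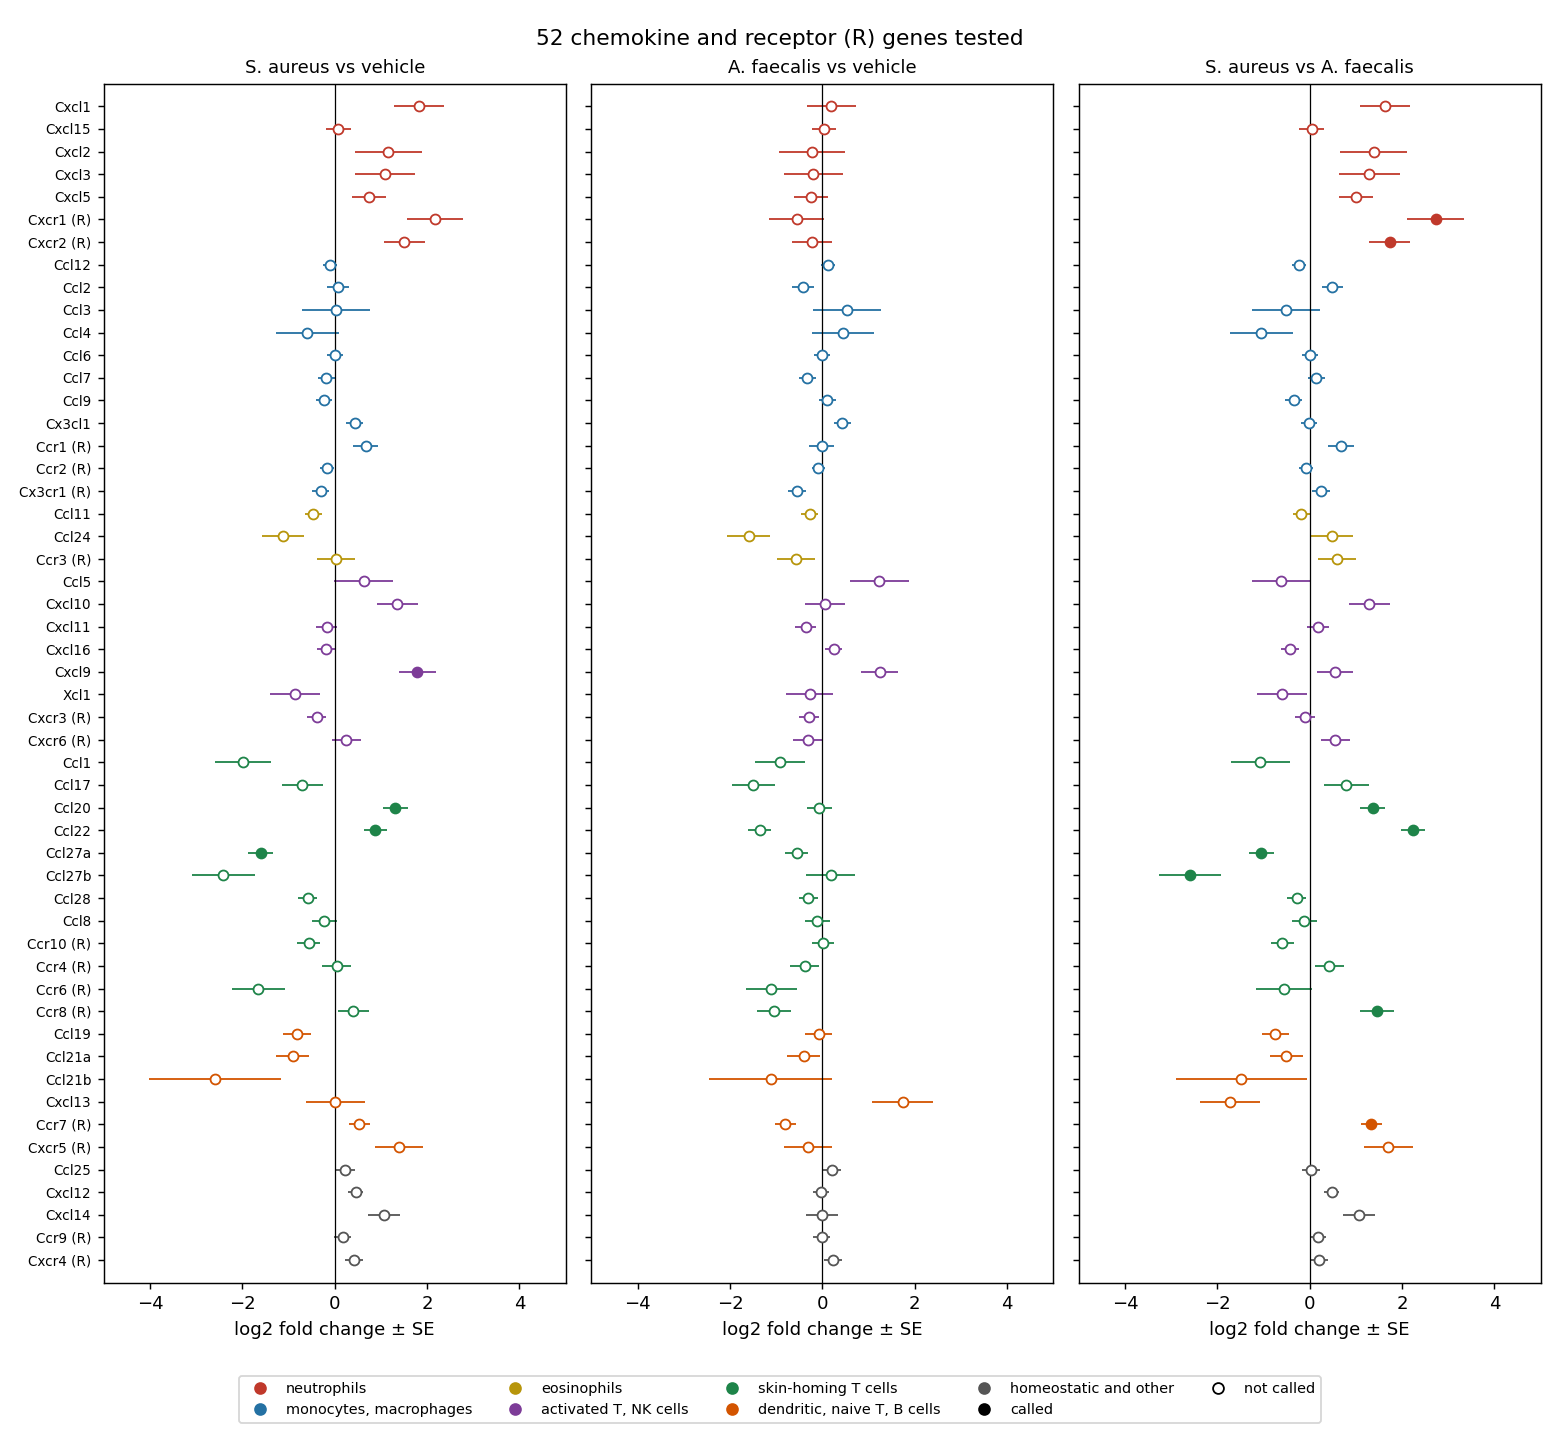
Log2FC ± SE of 52 of the genes tested, in rows grouped and coloured by the cell type attracted, for S. aureus against vehicle (left), A. faecalis against vehicle (middle) and S. aureus against A. faecalis (right). Filled points were called; 4 are filled on the left, 0 in the middle and 8 on the right, and neutrophil genes lie right of 0 in the left and right panels.

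Levels of different genes can be compared only per length, and were divided by the length of the longest basic coding transcript in GENCODE M21. The level of Ccl6, a ligand of Ccr1 in rodents, was 733 ± 114 CPM per kb with S. aureus, 728 ± 68.8 with A. faecalis and 732 ± 164 with vehicle, the highest vehicle mean among the ligands. Cxcl3 reached 910 ± 389 CPM per kb with S. aureus, 372 ± 144 with A. faecalis and 425 ± 406 with vehicle. Cxcl2 was at 879 ± 455, 337 ± 172 and 393 ± 388 CPM per kb in the same order of groups. In the vehicle libraries Ccl8 (513 ± 134 CPM per kb), Cxcl3, Cxcl2 and Ccl3 (337 ± 318) followed Ccl6, and the ranges of these 5 overlapped, so their order is not resolved by 4 libraries. Cxcl1, with 56.5 ± 47.4 CPM per kb with vehicle, stood well below its neighbours Cxcl2 and Cxcl3 in mean level.

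**Figure D2:**
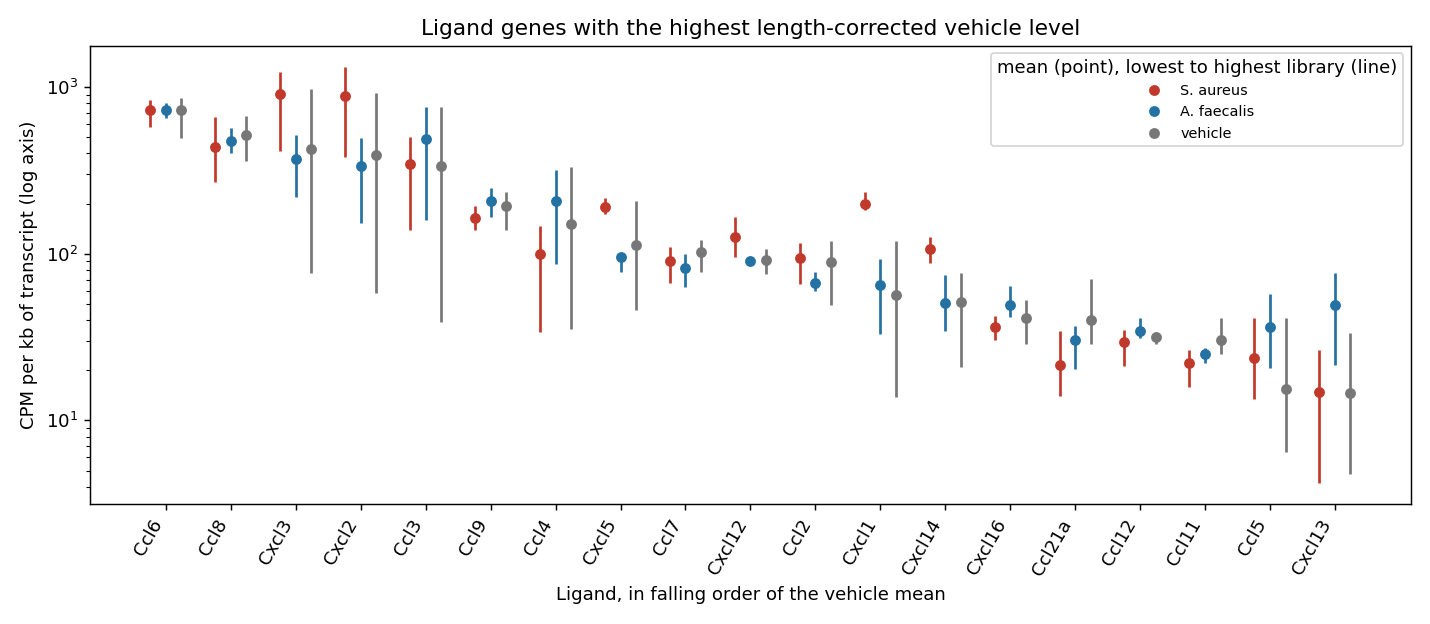
Levels per kb of transcript (log axis) of the ligand genes with the highest vehicle means, in S. aureus (red), A. faecalis (blue) and vehicle (grey) wounds; points are means of 4 libraries and lines run from the lowest to the highest library. Ccl6 has nearly equal means in all groups (733, 728 and 732 CPM per kb), while the vehicle lines of Cxcl3, Cxcl2 and Ccl3 are long.

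The neutrophil class holds the ligands Cxcl1, Cxcl2, Cxcl3, Cxcl5 and Cxcl15 and the receptors Cxcr1 and Cxcr2. All 7 had a positive log2FC with S. aureus against vehicle (median 1.16), none was called there by edgeR (3 at an unadjusted p under 0.05, where 27% of all genes were, and Cxcl1, Cxcr1 and Cxcr2 called by both DESeq2 and limma-voom), and both receptors were called against A. faecalis. Cxcr2, the main receptor by which neutrophils sense these ligands, was at 353, 445, 527 and 457 CPM in S. aureus wounds, at 118, 185, 90.7 and 144 CPM in A. faecalis wounds and at 75.7, 229, 54.2 and 270 CPM in vehicle wounds. Every S. aureus library lay above every library of the other groups. Cxcr2 rose with S. aureus against A. faecalis (log2FC 1.73, SE 0.448, adjusted p = 0.0272 by edgeR). Against vehicle the log2FC was 1.5 (SE 0.445, adjusted p = 0.0624). The call against A. faecalis was lost without A. faecalis replicates 1, 3 or 4 or replicates 2, 3 or 4 of the S. aureus group (adjusted p up to 0.081). Against vehicle, DESeq2 and limma-voom called Cxcr2, and so did edgeR without vehicle replicate 4.

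Cxcr1, the second receptor of the class, was at 9.74, 16.7, 25.9 and 20.3 CPM in S. aureus wounds, at 2.13, 3.43, 2.19 and 3.23 CPM in A. faecalis wounds and at 1.67, 5.54, 0.663 and 8.27 CPM in vehicle wounds. Again the S. aureus libraries lay above all the others. Log2FC was 2.73 against A. faecalis (SE 0.619, adjusted p = 0.0152 by edgeR; 0.0507 without A. faecalis replicate 3). Against vehicle it was 2.18 (SE 0.603, adjusted p = 0.0517), with calls by DESeq2 and limma-voom and by edgeR without vehicle replicates 3 or 4 or S. aureus replicate 1. Neither receptor differed detectably between A. faecalis and vehicle (log2FC values -0.23 for Cxcr2 and -0.55 for Cxcr1, adjusted p = 0.913 and 0.822). The neutrophil marker sums given above moved with both receptors, and their part in these differences was not tested. Median log2FC values of the 9 neutrophil markers were 2.14 with S. aureus against vehicle, -0.51 with A. faecalis against vehicle and 2.15 with S. aureus against A. faecalis. By edgeR 1 marker, Camp, was called higher with S. aureus against vehicle (3.87% of all genes), and 5 were against A. faecalis (7.62%). In the latter comparison log2FC values ran from 0.24 for Csf3r to 5.04 for Retnlg. With A. faecalis against vehicle the markers went both ways, from -2.53 for Retnlg to 1.70 for Camp, and none was called by edgeR. S100a8 and S100a9 were the largest parts of the marker sum, at 4031 and 4706 CPM in mean in S. aureus wounds.

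Of the 5 ligands, Cxcl1, which keratinocytes and stromal cells make early after injury, was the one whose S. aureus libraries lay above every vehicle library. Its level was 174, 184, 223 and 181 CPM in S. aureus wounds, 31.4, 88.4, 46.1 and 80.6 CPM in A. faecalis wounds and 25.9, 114, 13.1 and 62.6 CPM in vehicle wounds. The S. aureus values were tightly grouped, yet the spread among vehicle libraries was 8.67-fold and the gene was not called (log2FC 1.82 against vehicle, SE 0.55, adjusted p = 0.0653; 1.63 against A. faecalis, SE 0.546, adjusted p = 0.072). DESeq2 called it in both of these comparisons, and edgeR did so without vehicle replicate 2. Cxcl2 was at 706, 1141, 2462 and 2230 CPM in S. aureus wounds, at 283, 872, 426 and 921 CPM in A. faecalis wounds and at 292, 807, 108 and 1717 CPM in vehicle wounds. These ranges overlapped, and its log2FC of 1.16 against vehicle had an SE of 0.719 (adjusted p = 0.327). Cxcl3 followed the same order of libraries within each group except for the 2 highest S. aureus libraries, with a log2FC of 1.1 against vehicle (SE 0.651, adjusted p = 0.306). Cxcl5, which is also made by keratinocytes, averaged 300 ± 28.8 CPM in S. aureus wounds, 150 ± 18.5 CPM in A. faecalis wounds and 178 ± 117 CPM in vehicle wounds (log2FC 0.75 against vehicle, adjusted p = 0.215). Its S. aureus libraries did not overlap with those of A. faecalis (log2FC 1.0, SE 0.37, adjusted p = 0.0981 by edgeR, with a call by DESeq2 and by edgeR when only these groups were fitted). Cxcl15, a neutrophil chemokine known mainly from mouse lung, reached at most 1.2 CPM in any library, with a mean of 0.876 ± 0.107 CPM in S. aureus wounds, 0.852 ± 0.14 CPM in A. faecalis wounds and 0.836 ± 0.318 CPM in vehicle wounds.

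**Figure D3:**
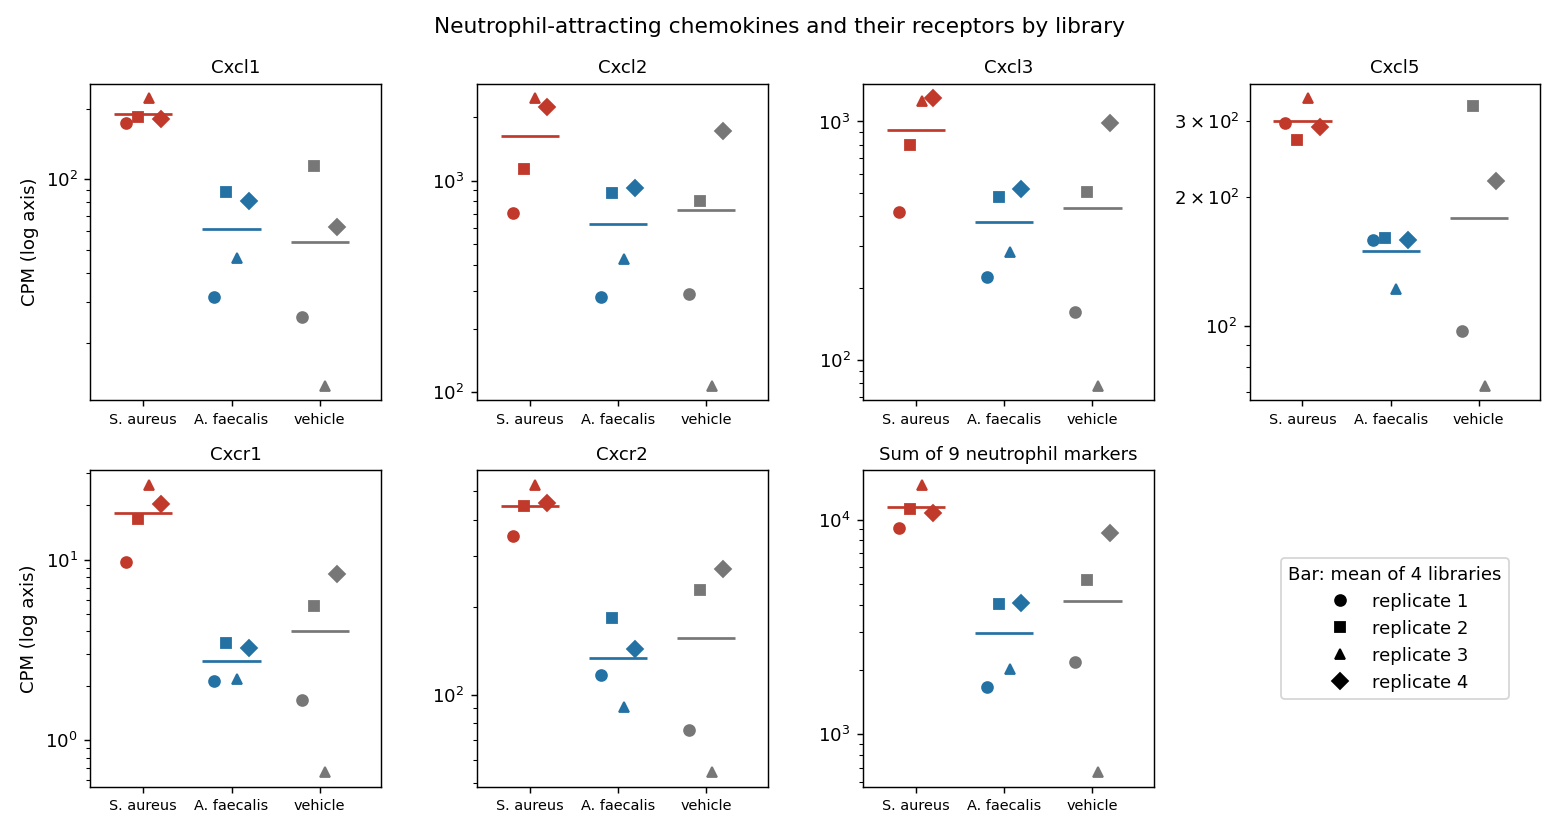
CPM on a log axis of 4 neutrophil-attracting ligands, their receptors Cxcr1 and Cxcr2 and the sum of 9 neutrophil markers, with 1 point per library (marker shape gives the replicate) and a bar at the mean, for S. aureus, A. faecalis and vehicle from left to right. The S. aureus libraries sit above all others for Cxcl1 (174 to 223 CPM), Cxcr1, Cxcr2 and the marker sum, and vehicle replicate 3 is the lowest point of each panel.

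The promoters of Cxcl1, Cxcl2 and Cxcl3 are shown because these similar genes neighbour each other on chromosome 5, and that of Ccl20 because it is a called member. They are the 250 bases before the RefSeq start in build GRCm38.p6, with matches to the kappaB consensus, the motif bound by NF-kappaB, on either strand in capitals. Matches to this near-palindromic motif on both strands overlap in the first 3.
Cxcl1, chr5:90890995-90891244, + strand: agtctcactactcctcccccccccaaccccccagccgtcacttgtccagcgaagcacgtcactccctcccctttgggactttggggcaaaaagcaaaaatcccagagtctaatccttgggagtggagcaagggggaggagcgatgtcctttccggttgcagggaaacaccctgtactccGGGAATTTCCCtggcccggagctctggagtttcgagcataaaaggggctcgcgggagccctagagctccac
Cxcl2, chr5:90903649-90903898, + strand: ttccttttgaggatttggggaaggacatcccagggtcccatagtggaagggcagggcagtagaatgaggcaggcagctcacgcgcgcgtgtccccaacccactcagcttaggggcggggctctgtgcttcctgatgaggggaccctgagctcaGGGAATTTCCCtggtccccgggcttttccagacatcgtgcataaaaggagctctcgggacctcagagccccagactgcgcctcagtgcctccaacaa
Cxcl3, chr5:90785851-90786100, + strand: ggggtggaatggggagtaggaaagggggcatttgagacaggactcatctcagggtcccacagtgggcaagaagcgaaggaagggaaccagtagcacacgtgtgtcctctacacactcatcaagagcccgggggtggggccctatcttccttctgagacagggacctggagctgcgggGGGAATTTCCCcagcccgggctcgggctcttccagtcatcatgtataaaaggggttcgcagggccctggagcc
Ccl20, chr1:83116516-83116765, + strand: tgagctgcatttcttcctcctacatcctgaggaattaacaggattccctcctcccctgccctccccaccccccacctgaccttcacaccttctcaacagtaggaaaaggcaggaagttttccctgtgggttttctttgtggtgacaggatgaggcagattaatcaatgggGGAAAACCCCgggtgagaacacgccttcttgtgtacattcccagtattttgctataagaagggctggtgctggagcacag
The first 3 share the letters GGGAATTTCC, beginning 71 bases before the start in Cxcl1, 97 in Cxcl2 and 73 in Cxcl3. Ccl20 holds its match 80 to 71 bases before the start, on the other strand. Promoters were listed for 40 of the 54 genes, and 8 of them (20%) held the consensus, against 4.46% of 27025 genes with a promoter in the table. The 8 were Ccl9, Ccl20, Ccr3, Ccr6, Cxcl1, Cxcl2, Cxcl3 and Cxcl10, where the similar neighbours Cxcl1, Cxcl2 and Cxcl3 are not independent of each other. The exact letters GGGAATTTCC were picked because Cxcl1, Cxcl2 and Cxcl3 share them, so these 3 hold them by choice. Of the other members only Ccr3 held them, and they stood in 0.104% of all genes' promoters. Ccl22 and Cxcl9, also called, had promoters in the table and no match in this window. A match describes the sequence only, and binding was not measured here.

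The monocyte and macrophage class holds many of the most abundant ligands. Of its 12 genes none was called with either bacterium against vehicle by edgeR, DESeq2 or limma-voom. An unadjusted edgeR p under 0.05 was reached by 3 with S. aureus (27% of all genes) and 2 with A. faecalis (7.68%). The median log2FC of the class was -0.13 with S. aureus against vehicle, 0.049 with A. faecalis against vehicle and -0.044 with S. aureus against A. faecalis. The summed monocyte and macrophage markers were 2876 to 3678 CPM in S. aureus wounds, 4267 to 6433 CPM in A. faecalis wounds and 3437 to 5799 CPM in vehicle wounds. Lyz2 was the largest part of this sum, and the markers did not move together. With S. aureus against vehicle Emr1 fell (log2FC -1.07, adjusted p = 0.0244 by edgeR). Csf1r had a log2FC of -0.53 (adjusted p = 0.0705) and Ly6c2 one of 1.07 (adjusted p = 0.0725). Their part in the values of this class was not tested. Ccr2, the receptor that brings inflammatory monocytes from the blood, averaged 191 ± 25.8 CPM in S. aureus wounds, 201 ± 26.6 CPM in A. faecalis wounds and 214 ± 39.4 CPM in vehicle wounds (log2FC values -0.17 and -0.09 against vehicle, adjusted p = 0.492 and 0.894).

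Its ligands Ccl2, Ccl7 and Ccl12 were not called either, with log2FC values of -0.18 and -0.32 for Ccl7 and -0.10 and 0.12 for Ccl12 with S. aureus and A. faecalis against vehicle. Ccl2, the main monocyte attractant, was at 76.2 ± 16.8 CPM in S. aureus wounds, 54.1 ± 6.72 CPM in A. faecalis wounds and 72.2 ± 23.9 CPM in vehicle wounds (log2FC values 0.08 and -0.41 against vehicle, adjusted p = 0.865 and 0.689). Ccl6 had a log2FC of 0.00053 with S. aureus and -0.0091 with A. faecalis against vehicle, with an SE of 0.171 for each. Ccl9, another ligand of Ccr1 in mice, averaged 492 ± 79.8 CPM in S. aureus wounds, 625 ± 110 CPM in A. faecalis wounds and 578 ± 128 CPM in vehicle wounds. Ccl3 and Ccl4, the macrophage inflammatory proteins, varied far more within groups. Ccl3 was at 107, 260, 386 and 299 CPM in S. aureus wounds, at 122, 529, 262 and 582 CPM in A. faecalis wounds and at 119, 302, 30.0 and 582 CPM in vehicle wounds. The ranges overlapped throughout, and the log2FC with S. aureus against vehicle had an SE of 0.736. Ccl4 averaged 66.2 ± 35.3 CPM in S. aureus wounds, 137 ± 75.6 CPM in A. faecalis wounds and 100.2 ± 90 CPM in vehicle wounds. Ccr1, carried by monocytes and neutrophils, averaged 411 ± 95.7 CPM in S. aureus wounds, 257 ± 48.1 CPM in A. faecalis wounds and 259 ± 113 CPM in vehicle wounds (log2FC 0.67 with S. aureus against vehicle, adjusted p = 0.153). Cx3cr1, the fractalkine receptor of patrolling monocytes and tissue macrophages, was at 7.52, 7.43, 9.25 and 7.52 CPM in S. aureus wounds, at 5.88, 8.27, 6.94 and 5.69 CPM in A. faecalis wounds and at 11.1, 10.2, 11.7 and 6.25 CPM in vehicle wounds. It had the smallest unadjusted p of the class with A. faecalis, with overlapping ranges (log2FC -0.55, SE 0.19, adjusted p = 0.55). Its membrane-bound ligand Cx3cl1 had log2FC values of 0.43 with S. aureus and 0.44 with A. faecalis against vehicle (adjusted p = 0.149 and 0.604).

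The skin-homing T cell class had the most calls. With S. aureus against vehicle 25% of its genes were called, where 6.84% of all genes were. Against A. faecalis it was 41.7%, where 12.7% of all genes were called, and this share counts the near-identical copies Ccl27a and Ccl27b separately. With a minimum mean of 1 CPM, Ccl20, Ccr8 and Ccl27b were not tested. In that setting only Ccl22 and Ccl27a were called in this class, in both comparisons. Of its 12 genes, Ccl20 and Ccl22 rose and Ccl27a fell with S. aureus against vehicle, and Ccl20, Ccl22 and Ccr8 were higher and Ccl27a and Ccl27b lower with S. aureus than with A. faecalis. Ccl20 draws Ccr6-bearing cells, among them T cells that make interleukin-17. Its level was 1.41, 1.07, 0.813 and 0.988 CPM in S. aureus wounds, 0.355, 0.388, 0.333 and 0.593 CPM in A. faecalis wounds and 0.399, 0.345, 0.379 and 0.601 CPM in vehicle wounds. All S. aureus libraries were above the others, whose groups covered nearly the same range. Ccl20 rose by a log2FC of 1.31 against vehicle, with SE 0.27 and adjusted p = 0.0207 by edgeR, and 1.37 against A. faecalis, with SE 0.271 and adjusted p = 0.00799, and both calls held when any single library was left out. For A. faecalis it was -0.06 against vehicle (SE 0.276, adjusted p = 0.972). The receptor Ccr6 had low levels, 0.141 ± 0.121 CPM in S. aureus wounds, 0.225 ± 0.111 CPM in A. faecalis wounds and 0.477 ± 0.171 CPM in vehicle wounds, and its log2FC of -1.65 with S. aureus against vehicle was not called by edgeR (adjusted p = 0.0984) but was by DESeq2.

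Ccl22, a ligand of Ccr4 made by dendritic cells and macrophages, had the smallest p of all 53 genes between the bacteria. It was at 14.6, 9.41, 10.3 and 7.60 CPM in S. aureus wounds, at 1.94, 3.12, 1.74 and 2.06 CPM in A. faecalis wounds and at 6.42, 7.07, 4.92 and 4.32 CPM in vehicle wounds. The groups formed 3 separate ranges, highest with S. aureus and lowest with A. faecalis. Ccl22 was higher with S. aureus than with A. faecalis by a log2FC of 2.23 (SE 0.252, adjusted p = 0.000779 by edgeR), and by 2.04 to 2.44 with a call in each of the 12 fits that left out 1 library. It rose with S. aureus against vehicle by 0.88 (SE 0.241, adjusted p = 0.0491), a call that held only without vehicle replicate 2 or A. faecalis replicate 2 and was lost without any other single library (adjusted p up to 0.111). It was also lost with upper-quartile scaling, with no filter on low counts and when only these groups were fitted. With A. faecalis against vehicle the log2FC was -1.35 (SE 0.248, adjusted p = 0.172), and DESeq2 called it there (adjusted p = 0.000141). Ccl17, the other ligand of Ccr4, was at 0.284 ± 0.0533 CPM in S. aureus wounds, 0.166 ± 0.0561 CPM in A. faecalis wounds and 0.459 ± 0.302 CPM in vehicle wounds (log2FC -1.49 with A. faecalis against vehicle, adjusted p = 0.519). Ccr4 itself had log2FC values of 0.04 with S. aureus and -0.38 with A. faecalis (adjusted p = 0.946 and 0.765). Summed dendritic and Langerhans cell markers were 48.2 to 52.2 CPM in S. aureus wounds, 40.2 to 49.8 CPM in A. faecalis wounds and 42.7 to 71.5 CPM in vehicle wounds, and their part in the differences of Ccl22 was not tested.

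Ccl27a, a chemokine of keratinocytes that draws Ccr10-bearing skin T cells, fell with S. aureus. It was at 1.25, 1.16, 1.19 and 1.03 CPM in S. aureus wounds, at 1.76, 3.36, 2.01 and 2.44 CPM in A. faecalis wounds and at 2.50, 2.66, 5.16 and 3.75 CPM in vehicle wounds. S. aureus libraries were below all others, and vehicle replicate 3 was the highest. Its log2FC was -1.61 against vehicle (SE 0.267, adjusted p = 0.0107 by edgeR), called in all 12 fits without 1 library (-1.72 to -1.344). Against A. faecalis it was -1.05 (SE 0.266, adjusted p = 0.0246), a call lost without A. faecalis replicates 2 or 4 or replicates 2, 3 or 4 of the S. aureus group (adjusted p up to 0.0714). Its near-identical copy Ccl27b had summed estimated counts of 10.6 with S. aureus, 82.2 with A. faecalis and 69.0 with vehicle. It was at 0.0784, 0.0691, 0.0762 and 0 CPM in S. aureus wounds, at 0.152, 0.531, 0.428 and 0.214 CPM in A. faecalis wounds and at 0.295, 0.115, 0.458 and 0.31 CPM in vehicle wounds, so the S. aureus libraries were below all others. Ccl27b was lower with S. aureus than with A. faecalis (log2FC -2.59, SE 0.67, adjusted p = 0.0266), a call lost without A. faecalis replicates 2 or 3 or replicates 2, 3 or 4 of the S. aureus group (adjusted p up to 0.0755). Ccl27b passed the filter on low counts through the A. faecalis and vehicle groups. It did not pass when S. aureus was fitted with only A. faecalis or only vehicle, so the call has no value there. Against vehicle the adjusted p was 0.0528 by edgeR and 0.0103 by DESeq2. Reads of such copies are divided by the estimation, so the values of both are uncertain. Ccl28, which also binds Ccr10, had S. aureus libraries below all vehicle libraries (0.625 ± 0.113 against 0.94 ± 0.157 CPM; log2FC -0.58, adjusted p = 0.101), and Ccr10 had a log2FC of -0.57 (adjusted p = 0.166). The keratinocyte marker sums given above overlapped between S. aureus and vehicle. On that list Krt10 averaged 50.1 CPM in S. aureus wounds and 119 CPM in vehicle wounds (log2FC -1.24, adjusted p = 0.183 by edgeR). The other keratinocyte markers had log2FC values of -0.23 to 0.11. The part of keratinocyte RNA in the differences of Ccl27a was not tested.

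Ccr8, a receptor of skin-resident and regulatory T cells, was at 0.549, 0.311, 0.432 and 0.228 CPM in S. aureus wounds, at 0.101, 0.201, 0.095 and 0.142 CPM in A. faecalis wounds and at 0.243, 0.402, 0.252 and 0.237 CPM in vehicle wounds. The A. faecalis libraries were below all others. It was higher with S. aureus than with A. faecalis (log2FC 1.45, SE 0.366, adjusted p = 0.0238 by edgeR), a call lost without A. faecalis replicates 1, 3 or 4 or replicates 1 or 3 of the S. aureus group (adjusted p up to 0.0725). With A. faecalis against vehicle the log2FC was -1.05 (adjusted p = 0.555). Its ligand Ccl8, which binds Ccr8 in mice, had log2FC values of -0.23 with S. aureus and -0.11 with A. faecalis against vehicle (adjusted p = 0.636 and 0.935). Ccl1, the other ligand of Ccr8, had summed counts of only 13.7 with S. aureus, 36.0 with A. faecalis and 65.6 with vehicle (log2FC -1.99 with S. aureus against vehicle, adjusted p = 0.0677).

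**Figure D4:**
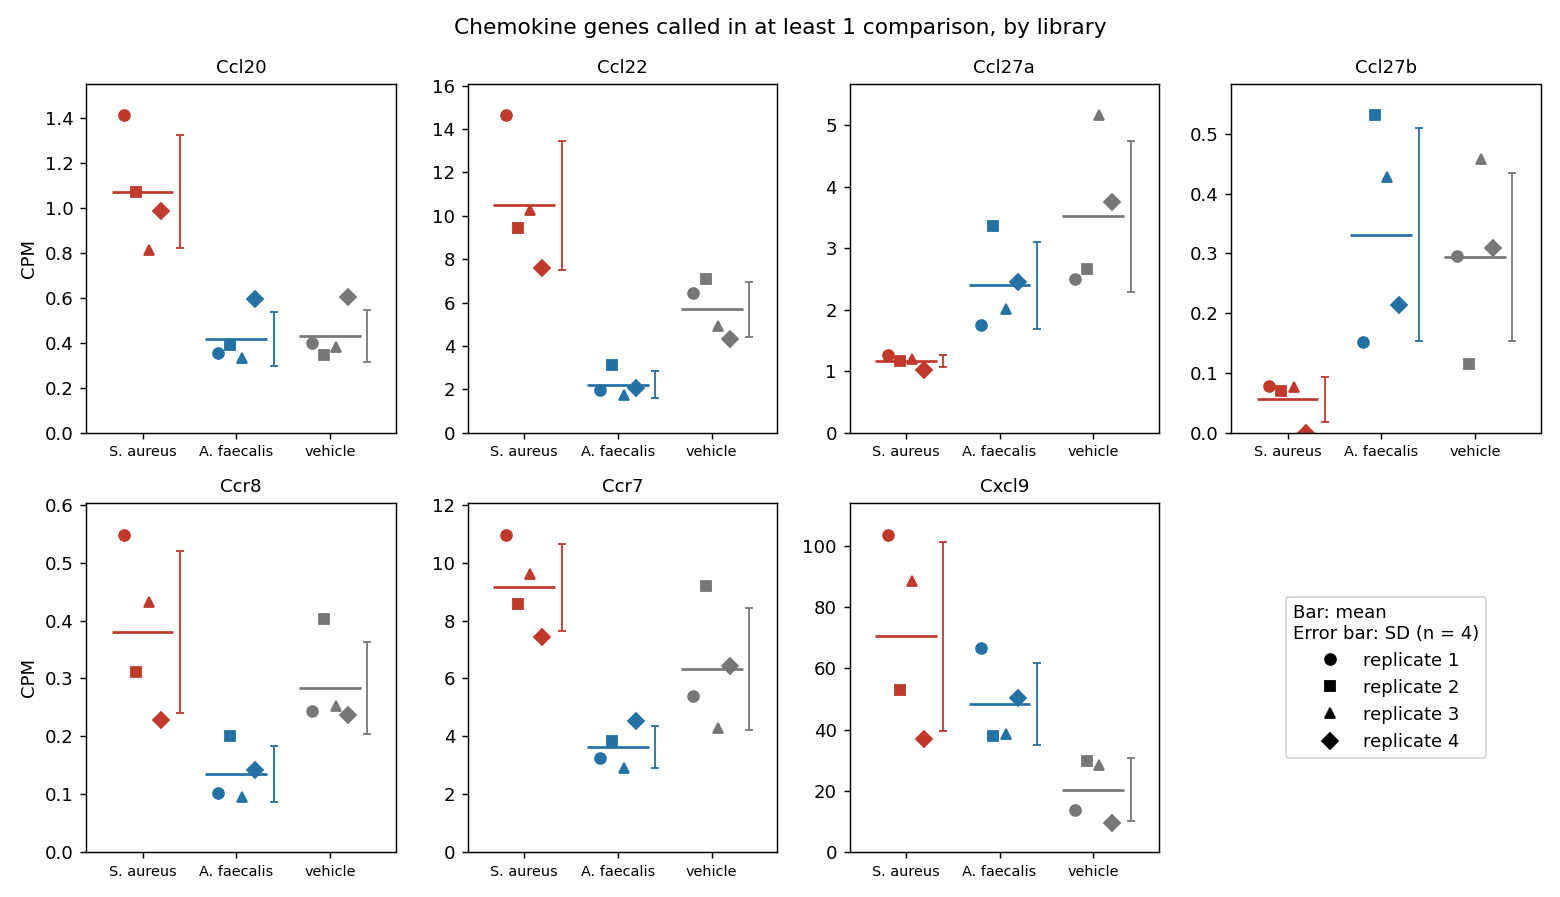
CPM of 7 of the genes called in at least 1 comparison, with 1 point per library, a bar at the mean and an error bar of 1 SD (n = 4), for S. aureus, A. faecalis and vehicle from left to right. Ccl22 forms 3 separate ranges (10.5 ± 2.98, 2.22 ± 0.613 and 5.68 ± 1.28 CPM), Ccl20 is higher in each S. aureus library than in any other, and Ccl27a is lowest there.

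The class that draws activated T and NK cells had 1 call, with S. aureus against vehicle (12.5% of its genes, against 6.84% of all genes). Cxcl9, an interferon-gamma-induced ligand of Cxcr3, rose with S. aureus. It was at 104, 53, 88.6 and 36.8 CPM in S. aureus wounds, at 66.6, 37.9, 38.4 and 50.3 CPM in A. faecalis wounds and at 13.8, 29.8, 28.4 and 9.60 CPM in vehicle wounds. The libraries of both bacteria were all above the vehicle libraries. The log2FC was 1.79 with S. aureus (SE 0.406, adjusted p = 0.0271 by edgeR; adjusted p up to 0.0846 without vehicle replicate 1 or S. aureus replicate 3, where the call was lost, as it was when only these groups were fitted). With A. faecalis it was 1.24 (SE 0.4, adjusted p = 0.539), and between the bacteria 0.55 (SE 0.394, adjusted p = 0.398). Cxcl10, a second interferon-induced ligand of Cxcr3, was at 26.1, 17.2, 39.2 and 16.2 CPM in S. aureus wounds, at 4.97, 15.8, 8.14 and 11.2 CPM in A. faecalis wounds and at 7.27, 7.82, 17.8 and 5.56 CPM in vehicle wounds. Its S. aureus libraries lay above those of A. faecalis, while vehicle replicate 3 lay within the S. aureus range (log2FC values 1.36 against vehicle and 1.30 against A. faecalis, adjusted p = 0.0765 and 0.0729). DESeq2 called it in both, and so did edgeR without vehicle replicate 3. Cxcl11, the remaining ligand of Cxcr3, had log2FC values of -0.18 with S. aureus and -0.36 with A. faecalis against vehicle (adjusted p = 0.668 and 0.716), and Cxcr3 -0.39 and -0.29 (adjusted p = 0.257 and 0.739). Ccl5, made by T and NK cells and macrophages, was uneven in all groups, at 12.6 ± 7.04 CPM in S. aureus wounds, 19.3 ± 8.75 CPM in A. faecalis wounds and 8.18 ± 9.24 CPM in vehicle wounds, where replicate 2 alone was at 22.1 CPM. Cxcl16 and its receptor Cxcr6, which guide tissue-resident T cells, had log2FC values of -0.18 and 0.25 with S. aureus and 0.25 and -0.31 with A. faecalis against vehicle (adjusted p from 0.576 to 0.813). Xcl1, a lymphocyte product, was under 1 CPM in mean in each group (log2FC -0.87 with S. aureus and -0.27 with A. faecalis, adjusted p = 0.329 and 0.911). Summed T and NK cell markers were 11.5 to 18.5 CPM in S. aureus wounds, 13.8 to 26.1 CPM in A. faecalis wounds and 10.4 to 17.6 CPM in vehicle wounds, so those groups overlapped.

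Among genes that guide dendritic cells, naive T cells and B cells, Ccr7 was called between the bacteria. Ccr7 leads maturing dendritic cells from skin to the lymph node. It was at 11, 8.59, 9.60 and 7.43 CPM in S. aureus wounds, at 3.23, 3.85, 2.90 and 4.53 CPM in A. faecalis wounds and at 5.38, 9.20, 4.28 and 6.43 CPM in vehicle wounds. The S. aureus libraries lay above all A. faecalis libraries, and the vehicle libraries overlapped with both. The log2FC was 1.336 between S. aureus and A. faecalis (SE 0.232, adjusted p = 0.00432 by edgeR), called in all 12 fits without 1 library (1.25 to 1.46). Against vehicle it was 0.53 with S. aureus (adjusted p = 0.157) and -0.80 with A. faecalis (adjusted p = 0.487). Its ligands, made by lymphatic vessels and stromal cells, had negative log2FC values with S. aureus against vehicle. Ccl19 was at 1.78, 2.21, 1.14 and 0.741 CPM in S. aureus wounds, at 2.03, 2.67, 2.96 and 2.18 CPM in A. faecalis wounds and at 2.69, 2.11, 3.27 and 2.31 CPM in vehicle wounds, where S. aureus replicate 2 reached into the range of the others. Against vehicle its log2FC was -0.82 (SE 0.296, adjusted p = 0.104 by edgeR and 0.0473 by DESeq2), and it was -0.91 for Ccl21a (SE 0.355, adjusted p = 0.127). Ccl21b is nearly identical to Ccl21a and was listed at 0 in S. aureus replicates 1 and 2 and A. faecalis replicate 1, so its share of the reads is uncertain. Summed lymphatic endothelium markers were 135 to 167 CPM in S. aureus wounds, 72.4 to 100.4 CPM in A. faecalis wounds and 103 to 129 CPM in vehicle wounds. Most of this sum was Lyve1, at 95.5 CPM in mean in S. aureus wounds, 45.2 CPM in A. faecalis wounds and 71.3 CPM in vehicle wounds. Prox1, on the same list, averaged 4.53 CPM in S. aureus wounds, 5.74 CPM in A. faecalis wounds and 8.22 CPM in vehicle wounds, with every S. aureus library below every vehicle library (log2FC -0.86, adjusted p = 0.0773 by edgeR). Their part in the values of Ccl19 and Ccl21a was not tested.

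Cxcl13, the B cell attractant, averaged 17.0 ± 10.6 CPM in S. aureus wounds, 56.4 ± 27.8 CPM in A. faecalis wounds and 16.9 ± 15 CPM in vehicle wounds. In the A. faecalis group it was at 24.8, 69.1, 43.5 and 87.9 CPM, and vehicle replicate 2 lay within that range at 38.5 CPM. The log2FC was 1.74 with A. faecalis against vehicle (SE 0.653, adjusted p = 0.594) and -1.73 with S. aureus against A. faecalis (SE 0.653, adjusted p = 0.105; called when only these groups were fitted). Its receptor Cxcr5 was at 7.0, 13.7, 13.8 and 14.0 CPM in S. aureus wounds, at 2.98, 5.01, 2.39 and 4.55 CPM in A. faecalis wounds and at 2.29, 6.0, 1.15 and 9.11 CPM in vehicle wounds. It stood above A. faecalis in all S. aureus libraries (log2FC 1.70, SE 0.527, adjusted p = 0.0547 by edgeR), and DESeq2, limma-voom and the edgeR fit of only these groups called it. Against vehicle the ranges overlapped (log2FC 1.39, SE 0.521, adjusted p = 0.114 by edgeR), and DESeq2 called it. Summed B cell markers were 3.45 to 4.34 CPM in S. aureus wounds, 4.46 to 6.44 CPM in A. faecalis wounds and 4.64 to 6.84 CPM in vehicle wounds. The vehicle libraries had the same order for Cxcr5 as for the neutrophil marker sum, and both were highest in S. aureus wounds; the part of either marker list in the difference of Cxcr5 was not tested.

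None of the 3 genes of the eosinophil class was called by edgeR, DESeq2 or limma-voom in any comparison. An unadjusted edgeR p under 0.05 was found for 2 with S. aureus (27% of all genes) and 1 with A. faecalis (7.68%) against vehicle and for 0 between the bacteria (28.2%). Ccl24, eotaxin-2, was at 2.53, 1.47, 2.54 and 3.42 CPM in S. aureus wounds, at 1.79, 1.49, 1.96 and 1.92 CPM in A. faecalis wounds and at 2.72, 2.57, 4.12 and 12.3 CPM in vehicle wounds. All A. faecalis libraries were below all vehicle libraries (log2FC -1.60, SE 0.465, adjusted p = 0.493), and vehicle replicate 4 stood far above the rest. Ccl11, eotaxin-1, made by fibroblasts, was at 26.9, 17.2, 28.7 and 22.8 CPM in S. aureus wounds, at 29.3, 29, 26.4 and 23.8 CPM in A. faecalis wounds and at 32.4, 26.9, 44.7 and 27.4 CPM in vehicle wounds. These ranges overlapped (log2FC values -0.46 and -0.28 against vehicle, adjusted p = 0.136 and 0.724). Their receptor Ccr3 had log2FC values of 0.03 and -0.56 (adjusted p = 0.97 and 0.739). Summed eosinophil markers were 3.85 to 4.33 CPM in S. aureus wounds, 2.11 to 3.72 CPM in A. faecalis wounds and 2.05 to 4.14 CPM in vehicle wounds. By edgeR 1 of these 3 markers rose with S. aureus against vehicle, where 3.87% of all genes were called higher. That marker was near the floor in the other groups and passed the filter on low counts through the S. aureus group. Siglecf and Prg2, on the same list, were not called (adjusted p = 0.206 and 0.313 by edgeR).

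Of the homeostatic and remaining genes, none of the 5 tested was called by edgeR or limma-voom (DESeq2 called Cxcl12 and Cxcl14 with S. aureus against either group, and 2 had an unadjusted edgeR p under 0.05 in each of these comparisons, with 27% of all genes against vehicle and 28.2% against A. faecalis), and all 5 had positive log2FC values with S. aureus against vehicle (0.17 to 1.06). Cxcl14, which epidermis and fibroblasts make in resting skin, was at 168, 160, 222 and 231 CPM in S. aureus wounds, at 137, 96.0, 75.4 and 63.0 CPM in A. faecalis wounds and at 77.9, 117, 38.4 and 140 CPM in vehicle wounds. Its S. aureus libraries were above all others (log2FC values 1.06 against vehicle, SE 0.35, adjusted p = 0.0813, and 1.07 against A. faecalis, SE 0.351, adjusted p = 0.0663). DESeq2 called it in both comparisons, and edgeR did so against vehicle without vehicle replicate 4. Cxcl12, the stromal ligand that retains Cxcr4-bearing cells, averaged 705 ± 171 CPM in S. aureus wounds, 506 ± 17.5 CPM in A. faecalis wounds and 514 ± 89.3 CPM in vehicle wounds (log2FC 0.45 against vehicle, adjusted p = 0.106). Its receptor Cxcr4 was at 56.8, 69.1, 101.5 and 99.1 CPM in S. aureus wounds, at 64.1, 86.3, 65.5 and 69.5 CPM in A. faecalis wounds and at 54.0, 62.3, 50.2 and 77.6 CPM in vehicle wounds. Those ranges overlapped, with log2FC values of 0.42 with S. aureus and 0.23 with A. faecalis (adjusted p = 0.192 and 0.777). Ccl25 and its receptor Ccr9, a pair known from gut and thymus, had log2FC values of 0.23 and 0.17 with S. aureus and 0.21 and -0.01 with A. faecalis against vehicle (adjusted p from 0.482 to 0.993). Cxcl17, which did not enter the test, had summed counts of 5.99 with S. aureus, 27.7 with A. faecalis and 33.5 with vehicle.

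Genes that act beside the chemokines were read from 4 lists. Over all genes tested, 3.87% were called higher and 2.97% lower with S. aureus against vehicle. With S. aureus against A. faecalis these shares were 7.62% and 5.06%. On the list of scavenging receptors and platelet chemokines, 2 of 9 fell with S. aureus against vehicle. They were Pf4, a platelet chemokine, at 185 CPM in S. aureus wounds, 390 CPM in A. faecalis wounds and 382 CPM in vehicle wounds (log2FC -1.04, adjusted p = 0.0334 by edgeR), and Dpp4, a peptidase that clips chemokine ends (-0.89, adjusted p = 0.0325). Both were also lower with S. aureus than with A. faecalis (-1.08 and -0.71, adjusted p = 0.0178 and 0.0488). Ackr3, a scavenger of Cxcl12, was higher with S. aureus than with A. faecalis (0.52, adjusted p = 0.0258). On the list of inducing cytokines and feedback genes, 4 of 16 rose with S. aureus against vehicle, which were Osm, Irf1, Ifng and Il17a. Ifng and Il17a were near the floor outside S. aureus wounds and passed the filter on low counts through the S. aureus group. Osm, a cytokine of neutrophils and macrophages, was at 125 CPM in S. aureus wounds, 12.9 CPM in A. faecalis wounds and 25.7 CPM in vehicle wounds (2.28, adjusted p = 0.0162), and Irf1, an interferon-induced transcription factor, at 180, 70.9 and 69.0 CPM in the same order (1.38, adjusted p = 0.00776). Ifng, an inducer of Cxcl9, was at 0.34, 0.57, 0.711 and 0.285 CPM in S. aureus wounds and at 0.122, 0.153, 0 and 0.0182 CPM in vehicle wounds (adjusted p = 0.038 by edgeR). In A. faecalis wounds it was at 0.0845, 0.115, 0.0317 and 0.0949 CPM (log2FC 0.18 against vehicle, adjusted p = 0.97). The part of Ifng in the values of Cxcl9 was not tested. The same 4 genes and Il6, which reached 32.5 CPM in S. aureus wounds against 6.29 CPM in A. faecalis wounds, were higher with S. aureus than with A. faecalis.

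On the leukocyte adhesion list, 4 of 10 rose with S. aureus against vehicle, where 3.87% of all genes were called higher. Among them were Selp and Sele, the endothelial selectins, and Vcam1, an adhesion molecule of activated endothelium. Summed endothelium markers (Pecam1, Cdh5 and Kdr) were 1043 to 1220 CPM in S. aureus wounds, 730.5 to 993 CPM in A. faecalis wounds and 634 to 919 CPM in vehicle wounds. Of these Pecam1 rose with S. aureus against vehicle (0.40, adjusted p = 0.0438), and their part in the rise of the adhesion genes was not tested. Selp was at 105 CPM in S. aureus wounds, 39.2 CPM in A. faecalis wounds and 36.9 CPM in vehicle wounds (1.51, adjusted p = 0.00332). Sele and Selp were also higher with S. aureus than with A. faecalis, where Icam1, an endothelial adhesion molecule, was lower (-0.80, adjusted p = 0.016). None of the 13 receptor signalling genes was called by edgeR in any of the comparisons. An unadjusted p under 0.05 was found for 0 with S. aureus against vehicle (27% of all genes). It was found for 1 with A. faecalis against vehicle (7.68%) and 4 between the bacteria (28.2%). With A. faecalis against vehicle no gene of the 4 lists was called by edgeR, and 6 had an unadjusted p under 0.05. These genes were not read from the other tools.

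The width of the groups differed among these genes. The median ratio of the highest to the lowest library over the 53 genes tested was 1.73 with S. aureus, 1.62 with A. faecalis and 2.31 with vehicle. It was 3.49 for Cxcl2 with S. aureus, 3.26 with A. faecalis and 16.0 with vehicle, and 3.61, 4.76 and 19.4 for Ccl3 in the same groups. Vehicle replicate 3 was the lowest vehicle library for 24 of the 53 genes and replicate 4 the highest for 21. The summed neutrophil markers were 2177, 5226, 665 and 8656 CPM in vehicle replicates 1 to 4, the same order of libraries as for Cxcl2, Cxcl3 and Ccl3. The part of neutrophil RNA in that spread was not tested.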

How the data were processed

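Total RNA of mouse wound skin was sequenced after removal of ribosomal RNA with a stranded kit, per the labels' protocols. The authors deposited estimated counts per gene, unnormalized. The submitters' processing notes name kallisto 0.48.0, FastQC 0.12.1, R 4.1.3, DESeq2 1.34.0 and build GRCm39, without roles; how gene values were formed from transcripts, and any use of strand, are not given in the sources used here. Kallisto divides reads among similar transcripts, so close copies (Ccl21a and Ccl21b, Ccl27a and Ccl27b) are uncertain. One entry without a name (0.00909% to 0.0151% of a library) was left out. Replicates of a group differed by a chi-square of 28.8 to 481 per degree of freedom, so none looked like a repeated library.

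Estimated counts were rounded, filtered with filterByExpr (minimum count 10, minimum total 15), scaled by TMM and tested with edgeR 4.0.16 in R 4.3.3 (robust quasi-likelihood, two-sided, group means, all 12 libraries), after a check on simulated data. Alternatives were other scalings, DESeq2 1.42.0, limma-voom (limma 3.58.1), other filters, fits of only the 2 groups compared, replicate numbers as a block, and leaving out each library. Members, lists and tests were chosen with earlier results of these data known. Full values were given for called members and, in each class, the member with the smallest unadjusted p against vehicle; other members with values in every library were chosen after their values were seen. Promoters are from RefSeq (GRCm38.p6) and lengths from GENCODE M21, both of another build than the counts. The values of 2 genes, 1 member and 1 listed gene, are not reported here; counts and medians include them.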

Additional observations from a re-analysis of the deposited data

Results flagged for a closer look

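In 4 of the 48 groups of 4 libraries examined for the genes given in full, 1 library lay far from the other 3 of its group; chance gives about 1 in 20 such groups. Cx3cr1 was at 9.25 CPM in S. aureus replicate 3, where the others were at 7.43 to 7.52 CPM. Ccl24 was at 12.3 CPM in vehicle replicate 4, where the others were at 2.57 to 4.12 CPM. Ccl27b was at 0 CPM in S. aureus replicate 4, where the others were at 0.0691 to 0.0784 CPM. Ccr8 was at 0.402 CPM in vehicle replicate 2, where the others were at 0.237 to 0.252 CPM.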

How the results depend on the processing

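The number of the 53 genes called with S. aureus against vehicle was 4 in the main test, where 6.84% of all genes were called. It was 14 by DESeq2 (16.1% of all genes) and 7 by limma-voom (7.02%). It was 2 of 51 when only the 2 groups were fitted (1.97%), and 2 to 10 with 1 library left out (1.41% to 9.51% over these fits, and 6.26% in the fit with 10). With A. faecalis against vehicle it was 0 (0.011% of all genes), 1 by DESeq2 (0.659%), and 0 to 0 with 1 library left out (0.0109% to 0.0543%). With S. aureus against A. faecalis it was 9 (12.7% of all genes) and 15 by DESeq2 (19.1%). It was 16 of 51 when only these 2 groups were fitted (19.4%), and 4 to 15 with 1 library left out (7.13% to 18.8%). Apart from fits that left out 1 library, the median log2FC moved by more than the spread between replicates (0.144) in 1 other setting. That was to -0.00884 by limma-voom for A. faecalis against vehicle. With 1 library left out the median was -0.078 to 0.0905 for S. aureus against vehicle, -0.27 to 0.014 for A. faecalis against vehicle and 0.072 to 0.15 for S. aureus against A. faecalis. The value of 0.014 also lay further from the main value of -0.19 than that spread. Among the single genes given in full, 878 values under an alternative stayed on the same side of the threshold, 48 lost a call and 23 gained one, and none that was called changed direction. The cause of these changes was not tested.

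With the replicate number as a block, 7, 0 and 10 genes were called in the 3 comparisons in the same order. The shares of all genes were 5.7%, 0.011% and 11.6%. The sources used here do not say whether equal numbers pair the samples. Deviations of same-numbered libraries correlated by -0.21 to 0.18, and the own number correlated best in 4 of 24 cases. Between A. faecalis and vehicle these correlations were all positive (0.070 to 0.18). Such weak correlations of few libraries cannot show whether same-numbered samples shared a batch. Genes with a mean under 1 CPM over all libraries (Ccl20, Ccr8, Ccl27b, Ccl1, Ccr6, Ccl17, Ccl28, Xcl1, Ccr10, Cxcl15) rest on few counts. They were not tested with a minimum mean of 1 CPM, so the calls of Ccl20, Ccr8 and Ccl27b have no value there. Cxcl2, Ccl3 and Ccl4 were called in no comparison by edgeR, DESeq2 or limma-voom with all groups fitted, and Cxcl3 was called when only S. aureus and A. faecalis were fitted.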
